A study of Mus musculus with 6 samples.

Results

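Epithelial adhesion, keratin and claudin transcripts were followed through the 6 libraries of an RNA-seq experiment on whole mouse embryos at embryonic day 10.5 (E10.5). The 10 genes were *Cdh1*, *Epcam*, *Krt8*, *Krt18*, *Krt19*, *Cldn3*, *Cldn4*, *Cldn6*, *Cldn7* and *Esrp1*. They were listed by symbol and selected on earlier results of these same counts, so their differences between genotypes are given as a description with no test. All 10 were among the 55401 genes of the count table and among the 16784 genes tested. Wild-type (WT) embryos carried the unmodified *Igf2* locus. 5C embryos carried a tandem array of extra copies of the microRNA gene *Mir483*, targeted to the endogenous *Igf2* locus in embryonic stem cells and passed on by chimeric males. Both genotypes were on a C57BL/6J background, WT embryos were littermates of the mutants, and each of the 3 libraries per genotype was a pool of 2 male embryos. As the RNA came from whole embryos, fewer epithelial cells and less RNA per epithelial cell cannot be told apart.

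An epithelium is a sheet of cells tied together at their sides. E-cadherin joins neighbouring cells at adherens junctions, claudins seal the space between them at tight junctions, and paired type I and type II keratins form the filaments inside. Loss of these proteins and gain of N-cadherin and vimentin mark the passage of epithelial cells to mesenchyme, which recurs in the midgestation embryo.

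Libraries held between 6357343 and 19151368 counts. CPM is the count relative to the TMM-scaled total of its library. For 3 counts, taken as the smallest detectable level, the unscaled totals were used, which gave between 0.157 and 0.472 CPM. Such limits cover counting error only. The edited gene separated the genotypes, with *Mir483* at 0.577, 0.429 and 0.319 CPM in the WT libraries and at 5.15, 4.35 and 2.56 CPM in the 5C libraries. WT replicate 3 held 2 counts of it, below the limit of 3 counts. Mature microRNA was not measured in these poly(A)-selected libraries. All 12 marker genes of the tissues of the embryo body were detected in every library. WT replicate 1 stood apart, with 6733 CPM summed over 18 marker genes of visceral yolk sac endoderm, against 307.3 and 588.8 CPM in the other WT libraries and 244.5, 233.3 and 1395 CPM in 5C replicates 1, 2 and 3. Fold changes of the 10 genes are therefore also given without WT replicate 1, and without WT replicate 1 and 5C replicate 3 together.

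Mature *miR-483* sequences are shown because the array adds copies of this gene, and their seeds (bases 2 to 8, in capitals) were searched for in the 3′ UTRs of the epithelial genes. Both are given by RefSeq for GRCm38.p6 on the minus strand, at chr7:142654932-142654952 for the 3p arm and chr7:142654968-142654989 for the 5p arm.
mmu-miR-483-3p: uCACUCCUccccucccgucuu
mmu-miR-483-5p: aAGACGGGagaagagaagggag
The 3′ UTRs of the 10 genes ran from 66 bases in *Krt18* to 1631 bases in *Cdh1*. None of the 10 held AGGAGTG, the match to the 3p seed, which 13% of the 13903 tested genes with a 3′ UTR held. None held CCCGTCT, the match to the 5p seed, which 3.61% held. The absence of these letters says nothing of sites elsewhere in the transcripts.

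Promoters are shown because 7 of the 10 genes shared their highest library. RefSeq promoter windows, of 250 bases before the annotated start in GRCm38.p6, were matched for 7 genes (*Epcam*, *Krt8*, *Krt18*, *Cldn3*, *Cldn4*, *Cldn6* and *Cldn7*) and not for *Cdh1*, *Krt19* and *Esrp1*. These were not the same 7 genes, as *Cdh1* shared that highest library and *Cldn3* did not. Whether promoter letters bear on the levels was not tested. *Epcam* (chr17:87635729-87635978, plus strand) and the neighbouring genes *Cldn4* (chr5:134946935-134947184, minus strand) and *Cldn3* (chr5:134985964-134986213, plus strand) are printed 5′ to 3′. Capitals mark the E-box CACCTG on either strand (CAGGTG on the other), the letters bound by the repressors SNAI1, ZEB1 and ZEB2.
Epcam: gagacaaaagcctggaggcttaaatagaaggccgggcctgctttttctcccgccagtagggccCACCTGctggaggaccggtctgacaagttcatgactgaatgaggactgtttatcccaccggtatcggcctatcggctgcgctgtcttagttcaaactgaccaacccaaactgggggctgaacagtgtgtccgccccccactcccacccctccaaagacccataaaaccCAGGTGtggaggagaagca
Cldn4: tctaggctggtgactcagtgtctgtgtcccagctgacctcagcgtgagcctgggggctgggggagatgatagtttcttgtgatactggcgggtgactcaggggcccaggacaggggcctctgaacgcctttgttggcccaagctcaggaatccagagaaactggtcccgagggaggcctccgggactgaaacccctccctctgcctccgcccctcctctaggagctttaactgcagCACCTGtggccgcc
Cldn3: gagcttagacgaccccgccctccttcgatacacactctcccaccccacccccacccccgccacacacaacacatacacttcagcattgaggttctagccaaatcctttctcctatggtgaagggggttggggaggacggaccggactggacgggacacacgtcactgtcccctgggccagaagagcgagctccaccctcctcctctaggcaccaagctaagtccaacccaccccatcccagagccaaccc
The *Epcam* window held the E-box 187 and 19 bases before the start, and the *Cldn4* window held it 14 bases before the start. In the *Cldn3* window neither orientation of these letters was found. At least 1 E-box was present in 6 of the 7 genes, all but *Cldn3*. The 7 genes had 8 windows between them, as *Cldn7* had a further window without these letters. Of all 32851 promoter windows, counted by window and not by gene, 17.2% held the E-box. The letters AACNNGTT, bound by grainyhead-like factors of epithelia, were in 0 of the 7 genes and in 3.64% of all windows.

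To place the genes beside each other, mean levels over the 6 libraries were divided by exon length. *Krt18* was the highest, at 47.4 CPM per kilobase, and its lowest library (30.9 CPM per kilobase) lay above the highest library of *Epcam* (22.8 CPM per kilobase). Below it came *Epcam* at 17.7, *Krt8* at 16.5, *Cldn6* at 12.3, *Cldn4* at 6.04, *Krt19* at 5.58, *Cdh1* at 4.63, *Cldn3* at 3.83, *Cldn7* at 2.68 and *Esrp1* at 2.28 CPM per kilobase. From *Epcam* downwards, each gene's range over the libraries overlapped that of its neighbour in this order.

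The adhesion genes were examined first. *Cdh1* (chr8:106603351-106670246, plus strand) encodes E-cadherin. It was at 42.6, 14.3 and 22.2 CPM in WT replicates 1, 2 and 3 and at 15.8, 14.9 and 17.5 CPM in 5C replicates 1, 2 and 3. WT replicate 1 was the highest library by a wide margin and WT replicate 2 the lowest, so that all 5C libraries lay inside the WT range. The WT mean was 26.3 CPM ± 14.6 (SD, n = 3) against a 5C mean of 16.04 CPM ± 1.35 (SD, n = 3). The log2 fold change of 5C over WT was -0.74, with a standard error (SE, the size of the change divided by the square root of the F statistic) of 0.32 and a 95% interval of -1.37 to -0.11. Such intervals treat the SE as known without error, so with n = 3 per genotype they are too narrow. For *Cldn4* the same interval was wholly negative, -0.87 to -0.04, while its unadjusted p in the edgeR F-test was 0.0598. Without WT replicate 1 the log2 fold change of *Cdh1* was -0.15 (SE 0.18). *Epcam* (chr17:87635979-87651129, plus strand) encodes a homophilic adhesion molecule of simple epithelia. Its levels were 49.9, 37.2 and 35.4 CPM in the WT pools and 33.7, 35.2 and 41.8 CPM in the 5C pools. The groups overlapped, with WT replicate 1 highest and 5C replicate 3 next. The log2 fold change was -0.16 (SE 0.14), and 0.02 (SE 0.12) without WT replicate 1.

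N-cadherin (*Cdh2*), the cadherin of neural and mesenchymal cells, gave a reference for the amount of E-cadherin transcript. Per kilobase, *Cdh2* exceeded *Cdh1* by a ratio of 2.77, 9.23 and 5.20 in the WT libraries and of 7.09, 7.86 and 7.02 in the 5C libraries. The 5C ratios lay between those of WT replicates 3 and 2. *Cdh2* itself stood between 197.1 and 231.9 CPM in all 6 libraries, so the low ratio in WT replicate 1 went with the high level of *Cdh1* there.

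**Figure D1:**
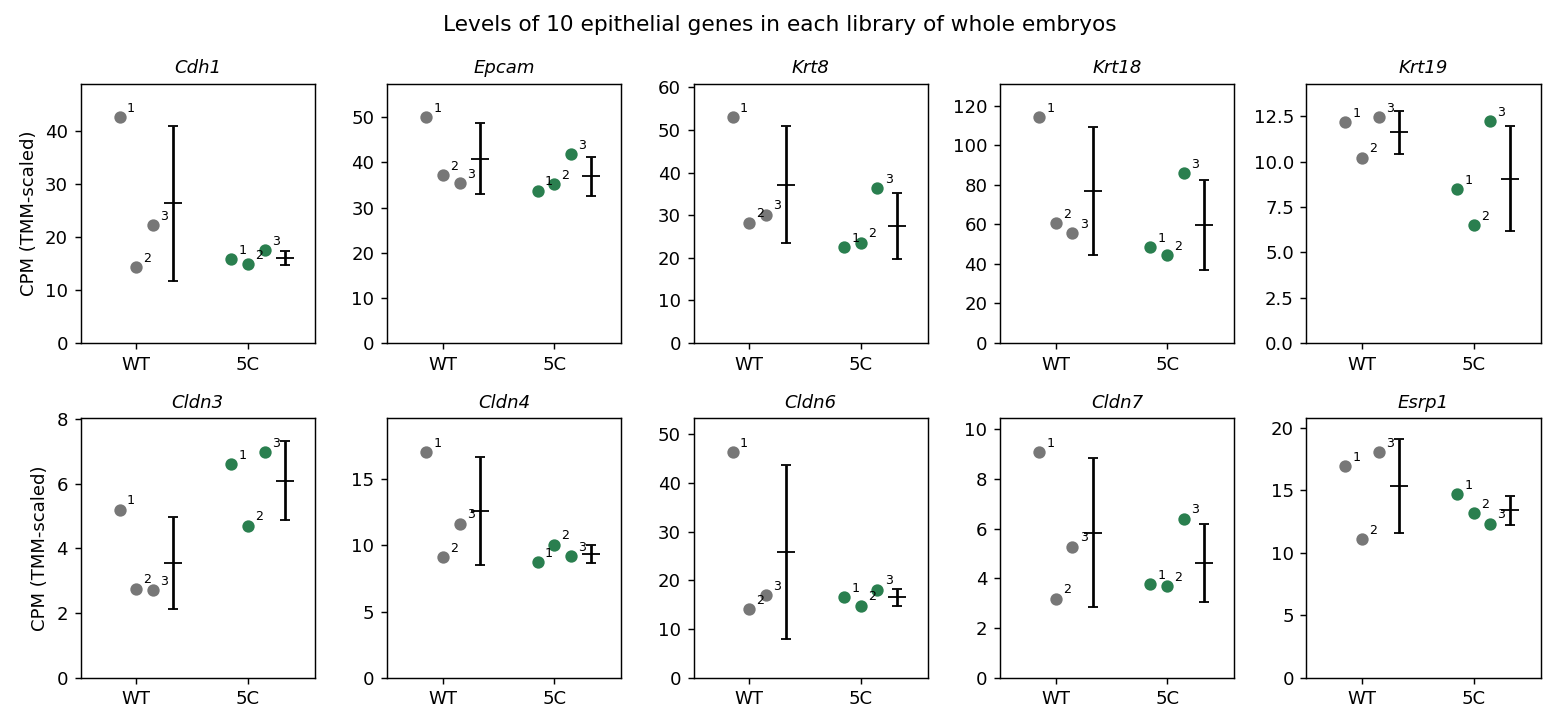
Level of each epithelial gene in CPM (vertical axes, linear, from 0) in the 3 WT (grey) and 3 5C (green) libraries, with points labelled by replicate number and black bars giving mean ± SD. *Cdh1* and *Cldn6* show 1 WT library, replicate 1, far above the other 5, and *Cldn3* is the only gene with a higher mean in 5C.

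Keratins 8 and 18 are the first keratins made in the embryo and pair with each other in simple epithelia. *Krt8* (chr15:101996698-102004482, minus strand), the type II partner, was at 52.9, 28.3 and 30.1 CPM across WT and at 22.5, 23.5 and 36.4 CPM across 5C. *Krt18* (chr15:102028180-102032027, plus strand), the type I partner, was at 114.1, 60.6 and 55.5 CPM in WT, against 48.4, 44.4 and 85.9 CPM in 5C. In both genes WT replicate 1 was highest, 5C replicate 3 was next, and 5C replicates 1 and 2 were the lowest libraries. Relative to *Krt8* per kilobase, *Krt18* stood at 2.94, 2.92 and 2.51 in WT and at 2.93, 2.58 and 3.22 in 5C. The pair thus kept a nearly constant ratio while both levels moved over a more than 2-fold range. Of all 45 pairs among the 10 genes, theirs were the most similar profiles, with a root-mean-square difference of 0.123 on the centred log2 scale.

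The log2 fold change of *Krt8* was -0.46 (SE 0.25), and -0.09 (SE 0.20) without WT replicate 1. That of *Krt18* was -0.38 (SE 0.30), and 0.04 (SE 0.24) without that library. With 5C replicate 3 left out as well, the values were -0.34 (SE 0.13) for *Krt8* and -0.33 (SE 0.10) for *Krt18*, so their size depended on which libraries were kept. The annotation holds a pseudogene copy of *Krt8*, and 40-base reads that match it equally well would not be counted. *Krt19* (chr11:100140810-100148665, minus strand), a type I keratin without the usual tail domain, was at 12.2, 10.2 and 12.4 CPM in the WT pools and at 8.48, 6.49 and 12.2 CPM in the 5C pools. Here WT replicate 1 did not stand out, and 5C replicates 1 and 2 lay below all WT libraries while 5C replicate 3 lay among them. Its log2 fold change was -0.35 (SE 0.22) with all libraries, -0.30 (SE 0.25) without WT replicate 1 and -0.57 (SE 0.19) without both named libraries.

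**Figure D2:**
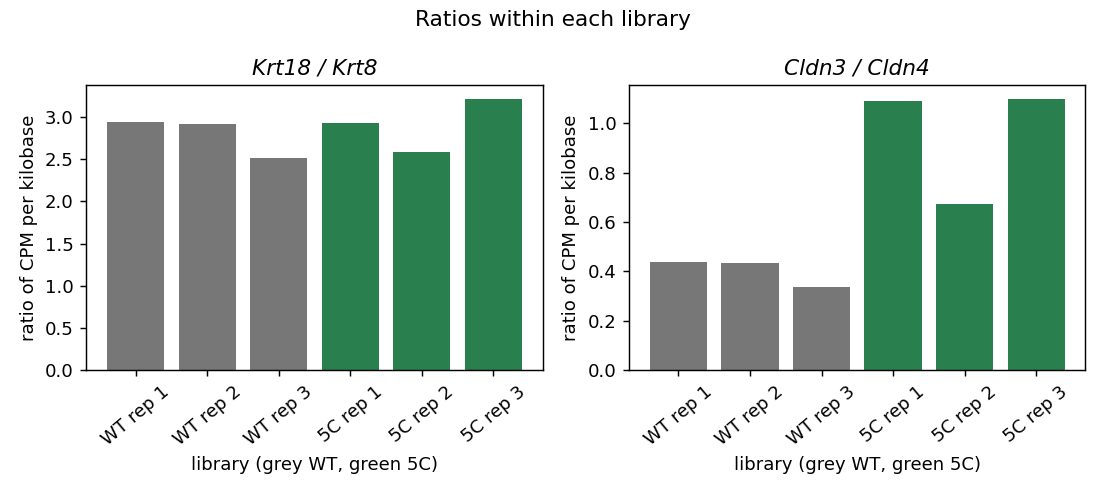
Ratio of CPM per kilobase of *Krt18* to *Krt8* (left) and of *Cldn3* to *Cldn4* (right) in each library, with bars from 0, WT in grey and 5C in green. The keratin ratio stays between 2.51 and 3.22, and the claudin ratio is 0.439 or less in the WT libraries and 0.672 or more in the 5C libraries.

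Claudins are tetraspan proteins of tight junctions. *Cldn6* (chr17:23679249-23682446, plus strand), a claudin of embryonic epithelia, was at 46.3, 14.1 and 16.9 CPM across WT and at 16.5, 14.8 and 18.1 CPM across 5C. WT replicate 1 stood 2.56 times above the next library, the largest such gap among the 10 genes, and the other 5 libraries lay close together. Its log2 fold change was -0.69 (SE 0.38), and 0.10 (SE 0.15) without WT replicate 1. *Cldn7* (chr11:69964779-69967885, plus strand) was at 9.08, 3.18 and 5.26 CPM in WT, against 3.76, 3.67 and 6.41 CPM in 5C. It followed *Krt8* and *Krt18* in that WT replicate 1 was highest and 5C replicate 3 next. For *Cldn7* the log2 fold change was -0.38 (SE 0.36), and 0.19 (SE 0.32) without WT replicate 1. *Cldn4* (chr5:134945119-134946934, minus strand) was at 17.05, 9.10 and 11.6 CPM in the WT pools and at 8.73, 10.1 and 9.18 CPM in the 5C pools. WT replicate 1 was again highest, and WT replicate 2 lay among the 5C libraries. For *Cldn4* the log2 fold change was -0.45 (SE 0.21), and -0.14 (SE 0.17) without WT replicate 1.

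*Cldn3* (chr5:134986214-134987472, plus strand) was the exception in direction. It was at 5.19, 2.75 and 2.71 CPM across WT and at 6.60, 4.70 and 6.98 CPM across 5C. The groups overlapped by 1 library, since WT replicate 1 lay above 5C replicate 2, and the other 2 WT libraries were the lowest. Its counts were few, 99, 32 and 17 in WT and 109, 55 and 98 in 5C. The WT mean was 3.55 CPM ± 1.42 (SD, n = 3) against a 5C mean of 6.09 CPM ± 1.22 (SD, n = 3). Its log2 fold change was 0.72 (SE 0.28, 95% interval 0.18 to 1.26, too narrow as for *Cdh1*), the only positive value among the 10 genes. It was 1.16 (SE 0.25) without WT replicate 1 and 1.06 (SE 0.26) without both named libraries.

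*Cldn4* and *Cldn3* lie side by side on chromosome 5, in opposite orientations. The ratio of *Cldn3* to *Cldn4* per kilobase was 0.439, 0.435 and 0.336 in WT and 1.09, 0.672 and 1.10 in 5C. The ratio did not overlap between genotypes, and it was alike in WT replicates 1 and 2 although both genes were higher in replicate 1. This pair was set side by side after the values were seen, and exact permutation of 3 against 3 libraries cannot give a two-sided p below 0.1. By contrast, the ratio of *Cldn6* to *Cldn4* was 2.86, 1.63 and 1.53 in WT and 2, 1.55 and 2.08 in 5C, which overlapped.

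*Esrp1* (chr4:11331933-11386783, minus strand) encodes a splicing factor that sets the epithelial exon choice of many transcripts. It was at 16.9, 11.1 and 18.03 CPM in WT, against 14.7, 13.2 and 12.3 CPM in 5C. All 5C libraries lay between the lowest and the other 2 WT libraries. Its log2 fold change was -0.19 (SE 0.18), and -0.08 (SE 0.20) without WT replicate 1. Its paralogue *Esrp2* was lower per kilobase in every library, with ratios of *Esrp1* to *Esrp2* between 1.42 and 3.06, both of these in WT. Exons of *Esrp1*, *Krt8* and *Cldn3* overlap genes on the opposite strand by 127, 101 and 40 bases, so a few reads of these genes would be uncertain if strand was not used in counting.

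Taking the 10 genes together, 9 were lower and 1 was higher in the 5C mean, and their median log2 fold change was -0.38, against 0.00 over all genes tested. Without WT replicate 1, 5 were lower and 5 higher, with a median of -0.03. Without WT replicate 1 and 5C replicate 3, 8 were lower and 2 higher, with a median of -0.12. Without both, the log2 fold changes not given above were -0.22 (SE 0.20) for *Cdh1*, -0.08 (SE 0.11) for *Epcam*, -0.12 (SE 0.19) for *Cldn4*, 0.03 (SE 0.16) for *Cldn6*, -0.11 (SE 0.27) for *Cldn7* and -0.02 (SE 0.21) for *Esrp1*. In 0 of the 10 did all 5C libraries lie below all WT libraries, which held for 5.1% of all genes tested, and in 0 did they all lie above, which held for 6.26%. None of the 10 was a differentially expressed gene (DEG, adjusted p under 0.05 and fold change over 1.5 in edgeR), nor was any other gene, a share of 0%. The authors, by contrast, reported DEGs in these embryos from an edgeR quasi-likelihood test at the same thresholds. The cause of this difference was not tested. At an unadjusted p under 0.05, edgeR gave 1011 genes. DESeq2 gave 11 DEGs, and none of the 10 genes was among these 11. Among all alternatives only the edgeR test without a count filter, with 319 DEGs among 33139 genes tested, called any of the 10. These were *Cdh1* and *Cldn6*.

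**Figure D3:**
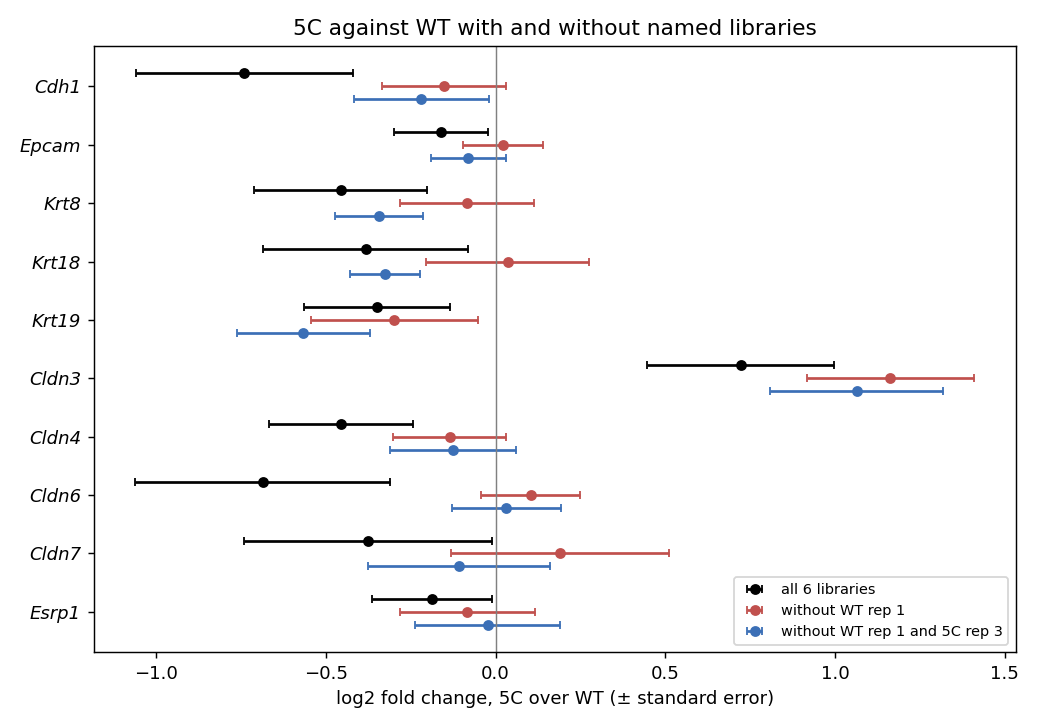
Log2 fold change of 5C over WT (horizontal axis) for the 10 genes, with SE as bars, from all 6 libraries (black), without WT replicate 1 (red) and without WT replicate 1 and 5C replicate 3 (blue). *Cdh1*, *Cldn6* and *Cldn7* move towards or past 0 when WT replicate 1 is left out, and *Cldn3* moves from 0.72 to 1.16.

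Most of the 10 genes shared their highest library. WT replicate 1 was the highest library for 7 of the 10, all but *Krt19*, *Cldn3* and *Esrp1*, compared with 18.1% of all genes tested. It was at least 1.5 times the highest of the other 5 libraries for 2 of the 10, *Cldn6* and *Cdh1*, compared with 1.75% of all genes tested. Relative to the median of the other 5 libraries, WT replicate 1 was 2.80 times as high for *Cldn6*, 2.70 for *Cdh1*, 2.42 for *Cldn7*, 2.06 for *Krt18*, 1.87 for *Krt8*, 1.86 for *Cldn4*, 1.41 for *Epcam*, 1.28 for *Esrp1*, 1.19 for *Krt19* and 1.11 for *Cldn3*. These comparisons with all genes describe genes picked with the values known.

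Among pairs of the 10 genes, *Cdh1* and *Cldn6* followed *Krt8* and *Krt18* in similarity, with a root-mean-square difference of 0.167 on the centred log2 scale. Both were set by WT replicate 1, at 1.10 above the mean of the 6 libraries for *Cdh1* and 1.25 above it for *Cldn6*. *Krt8* and *Krt18* shared in addition a higher 5C replicate 3, at 0.23 and 0.41 above their means. *Cldn3* differed most from the rest, and its distance from *Cdh1*, 0.729, was the largest of all pairs.

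**Figure D4:**
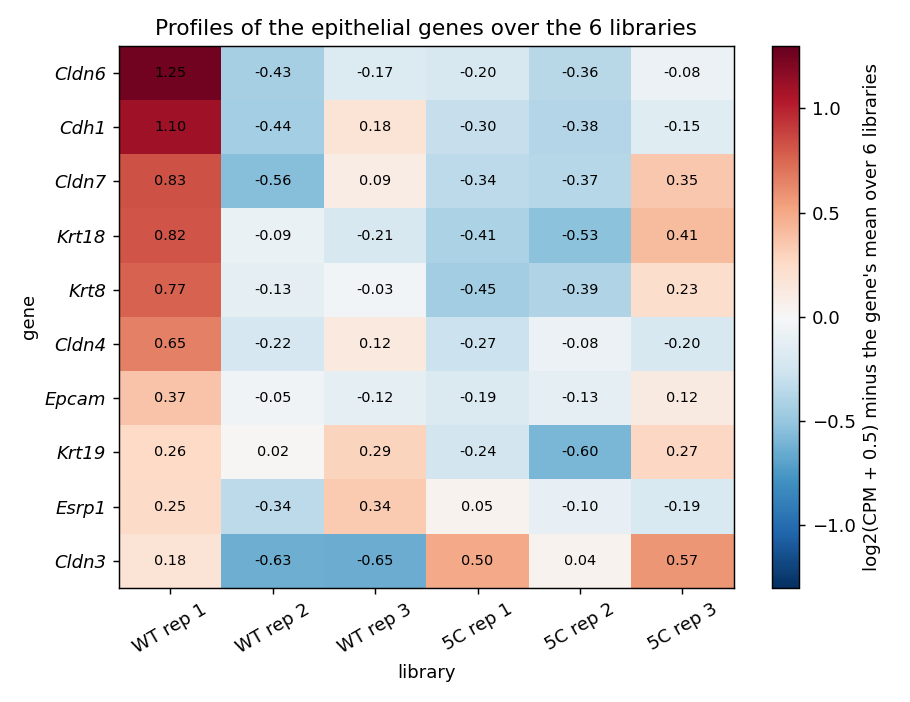
Profiles of the 10 genes over the 6 libraries, each cell giving log2(CPM + 0.5) minus the gene's mean (red above, blue below), with genes ordered by their value in WT replicate 1. The first column falls from 1.25 for *Cldn6* to 0.18 for *Cldn3*, whose 5C values are all above its mean.

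Outside the 10 genes, the transcripts with the closest profiles were sought among genes of at least 1 CPM that varied at least as much. *Cldn6* lay closest to *Hpn*, a membrane serine protease, at a difference of 0.120, and to *Gpx3*, a secreted glutathione peroxidase, at 0.128. *Cdh1* lay closest to *Tmem130* at 0.142 and *Abcb1a*, a drug efflux transporter, at 0.157. *Krt18* lay closest to *Ephx2*, an epoxide hydrolase, at 0.064 and the tetraspanin *Cd82* at 0.113. *Krt8* lay closest to *Lgmn*, a lysosomal protease, at 0.108 and *Aadat* at 0.116. *Cldn4* lay closest to the collagen gene *Col1a2* at 0.078 and the uroplakin gene *Upk3b* at 0.094. For *Epcam* they were *Tdrd7* at 0.045 and *Hmox1* at 0.046, for *Krt19* *4930558J18Rik* at 0.057 and *Gdpd2* at 0.125, for *Cldn7* *Tcf24* and *Hoga1*, both at 0.159, and for *Esrp1* *Gse1* at 0.061 and *Nol4l* at 0.067. *Cldn3* had no near match, with *Gm2000* at 0.3 and *Gm29430* at 0.303. Each profile rests on 6 libraries, and the closest genes were searched for among between 359 and 4936 candidates.

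Levels of the epithelial genes were then set beside those of tissues that hold epithelium. Summed over the 10 genes, the level was 366.2, 190.7 and 210.3 CPM in the WT pools and 179.1, 170.8 and 246.8 CPM in the 5C pools. The 6 libraries took the same order by this sum as by the visceral yolk sac endoderm sum given above, with WT replicate 1 first, 5C replicate 3 next, then WT replicates 3 and 2 and 5C replicates 1 and 2. Visceral yolk sac endoderm is the absorptive epithelium of the membrane around the embryo, and many of its secreted proteins are also made by the liver bud. All 18 of its markers were highest in WT replicate 1, and none was at 0 in any library. Of the 17 tested, 17 had a lower 5C mean and the median log2 fold change was -2.003, while without WT replicate 1 1 of 16 was lower, with a median of 0.66. With 5C replicate 3 left out as well 13 of 14 were lower, with a median of -0.80, so the direction depended on whether 5C replicate 3 was kept. *Afp*, *Apob*, *Lrp2* and *Cubn*, the most abundant by CPM, had log2 fold changes of -2.09, -2.59, -0.92 and -2.60 with all libraries, 0.70, 0.41, -0.21 and 0.73 without WT replicate 1, and -0.94, -2.24, -0.41 and -2.35 without both. In edgeR 0 of the 17 passed adjustment, with 3 lower at an unadjusted p under 0.05, compared with 3.47% of all genes tested. Without a count filter edgeR called 16 of the 18 as DEGs, all lower, compared with 319 of all 33139 genes tested. DESeq2 called 0. The part of this tissue in the levels of the epithelial genes was not tested.

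Summed over their genes, marker lists of other epithelia varied less between libraries. The summed level lay between 37.2 and 44.6 CPM for 7 surface ectoderm genes, between 38.4 and 47.9 CPM for 9 gut endoderm genes and between 37.6 and 43.6 CPM for 8 nephric duct genes, with WT replicate 1 the highest in each. Median log2 fold changes of these lists were 0.09 over 6 tested genes, -0.24 over 8 and -0.09 over 8. The largest part of the gut endoderm sum was *Shh*, at between 12.9 and 18.1 CPM, so this sum says little of scarcer genes. *Foxa3* was at 4.93 CPM in WT replicate 1, 2.28 CPM in 5C replicate 3 and at most 0.798 CPM elsewhere. *Cdx2* was at 2.26 and 1.57 CPM in these libraries and at most 1.12 CPM elsewhere. WT replicate 1 was the highest library for 5 of the 9 gut endoderm genes. The 11 trophoblast genes summed to 39.4, 27.6 and 27.1 CPM across WT and to 20.1, 16.1 and 35.1 CPM across 5C, with WT replicate 1 and 5C replicate 3 again highest. Of these genes, 4 were tested, with 2 lower and 2 higher in 5C and a median of -0.19. Most of each sum was the keratin *Krt7*, which reached 33 CPM in WT replicate 1 and 23.7 CPM in 5C replicate 3. The order of the sums therefore says little of the rest of the list. Among the other tested genes, *Prl3b1* was highest in WT replicate 1, while *Prl3d1* and *Plac1* were highest in 5C replicate 3. For *Prl3d1*, WT replicate 1 (0.42 CPM) lay below WT replicate 2 (1.72 CPM). Of the 7 decidua genes, 6 were tested, 2 lower and 4 higher with a median of 0.26. The sum of the 7 was 80.6 CPM in WT replicate 3 and nearly the same, 79.1 CPM, in 5C replicate 3. *Prl8a2* alone was at 43.4 and 28.3 CPM in these libraries. None of the genes in these lists passed adjustment in edgeR. Without a count filter 3 of the 7 decidua genes, *Prf1*, *Gzmd* and *Gzmg*, were DEGs, compared with 319 of all 33139 genes tested. Each of the 3 had a higher mean in 5C and its highest level in 5C replicate 3.

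**Figure D5:**
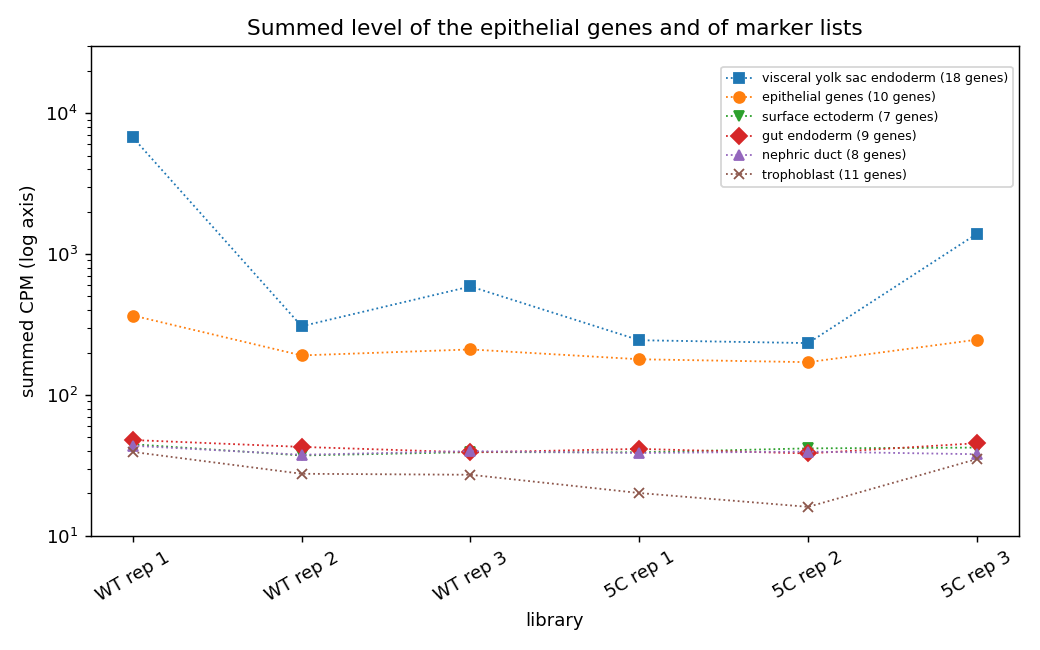
Summed CPM (vertical log axis) of the 10 epithelial genes and of 5 marker lists in each library. The epithelial sum runs from 170.8 to 366.2 CPM and takes its 2 highest values in WT replicate 1 and 5C replicate 3, where the visceral yolk sac endoderm sum is 6733 and 1395 CPM.

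Other genes of cell junctions were read from a list of 37, of which 35 were tested. Of these 30 had a lower and 5 a higher 5C mean, the median log2 fold change being -0.13, with 20 of 34 lower without WT replicate 1 and 22 of 33 lower without both named libraries. None passed adjustment in edgeR, and none was a DEG in DESeq2. At an unadjusted p under 0.05, 5 were lower and 0 higher, compared with 3.47% and 2.55% of all genes tested. Of all genes under that threshold 57.7% were lower in 5C, and 42.4% when libraries were scaled by their totals alone. In 8 of the 35 all 5C libraries lay below all WT libraries, and in 1 all lay above, compared with 5.1% and 6.26% of all genes tested. The most abundant per kilobase were the catenins that anchor cadherins, *Ctnnb1* at -0.13 and *Ctnna1* at -0.05, and the tight junction scaffold *Tjp1* at 0.00, all log2 fold changes with an adjusted p of 0.781 or higher in edgeR.

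Among the junction genes the smallest unadjusted p belonged to 2 desmosome genes. *Dsp*, which links keratin filaments to desmosomes, was at 53.4, 34.9 and 45.0 CPM in WT, against 33.4, 31.1 and 33.8 CPM in 5C. Its groups did not overlap, and its log2 fold change of -0.44 (SE 0.14) had an adjusted p of 0.781 in edgeR. Without WT replicate 1 its log2 fold change was -0.27, and without a count filter its adjusted p in edgeR was 0.00489. The desmosomal cadherin *Dsc3* was near the floor, at 1.47, 0.773 and 1.91 CPM in the WT pools and at 0.364, 0.768 and 0.498 CPM in the 5C pools, with a log2 fold change of -1.33 (SE 0.42) and the same adjusted p of 0.781 in edgeR.

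Few other keratins were present at this stage. Of 15, 5 were tested, 2 lower and 3 higher (median log2 fold change 0.08). That median was negative in 5 of 16 alternatives, namely without a count filter, without WT replicate 2 and without each 5C library in turn. It ran from -0.40 without 5C replicate 3 to 0.38 without WT replicate 1. In those 5 alternatives the set of keratins tested also differed, with 14 without a count filter and 6 in each of the others. *Krt16* had no count in any library. Log2 fold changes were -0.57 (SE 0.26) for *Krt7* of simple epithelia, 0.40 (SE 0.35) for *Krt5* of basal cells and 0.08 (SE 0.19) for *Krt10* of differentiating epidermis, all with adjusted p of 0.781 or higher in edgeR. For *Krt7* the value was -0.28 without WT replicate 1 and -0.90 without 5C replicate 3, and for *Krt5* it was 0.75 without WT replicate 1. *Krt20* resembled *Cdh1* and *Cldn6* in that WT replicate 1 stood alone, with 8.18, 1.03 and 1.12 CPM across WT and 1.27, 0.854 and 1.99 CPM across 5C. The log2 fold change of *Krt20* was -1.47 (SE 0.71), and 0.38 without WT replicate 1. In edgeR without a count filter *Krt20* was the only DEG among 14 keratins tested, compared with 319 of all 33139 genes.

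Regulators and other genes of the epithelial state formed a list of 30, with 28 tested. Of these 20 were lower and 8 higher in 5C, with a median of -0.26, and without WT replicate 1 the split was 13 lower and 15 higher. Without both named libraries it was 18 lower and 10 higher. None passed adjustment in edgeR, with 2 lower and 0 higher at an unadjusted p under 0.05, compared with 3.47% and 2.55% of all genes tested. Without a count filter edgeR called 3 of the 30, *Rbm47*, *Prss8* and *Tmem30b*, compared with 319 of all 33139 genes tested. The 2 genes lower at an unadjusted p under 0.05 in edgeR were *Prss8*, a membrane serine protease, and *Ap1m2*, an adaptor of basolateral sorting. Their log2 fold changes were -1.12 (SE 0.49) and -0.52 (SE 0.19), both with an adjusted p of 0.781 in edgeR. *Prss8* was at 32.2 CPM in WT replicate 1 and between 6.06 and 10.4 CPM in the other 5 libraries. When WT replicate 1 was left out the log2 fold change was -0.07 for *Prss8* and -0.28 for *Ap1m2*, and without both it was -0.33 and -0.36. The abundant genes *Itga6* and *Lsr* had log2 fold changes of 0.03 (SE 0.06) and 0.00 (SE 0.15).

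Mesenchymal genes had values of both signs. Of 18, all tested, 11 had a lower and 7 a higher 5C mean (median log2 fold change -0.04), and 0 passed adjustment in edgeR, with 3 lower and 1 higher at an unadjusted p under 0.05, compared with 3.47% and 2.55% of all genes tested. The log2 fold change of *Vim* was 0.13 (SE 0.11) and that of *Col3a1* was -0.21 (SE 0.12). In 1 of the 18 all 5C libraries lay below all WT libraries, and in 1 all lay above. These separations held for 5.1% and 6.26% of all genes tested. *Twist1*, a driver of mesenchymal fate, was above all WT libraries in all 5C libraries, with a log2 fold change of 0.21 (SE 0.08). *Fn1*, which encodes fibronectin, lay below all WT libraries in all 5C libraries, with a log2 fold change of -0.46 (SE 0.13), while *Col1a1*, of fibrillar collagen, had one of -1.05 (SE 0.36) with overlapping groups. *Col1a1* was at 133.1 CPM in WT replicate 1 and between 32.9 and 73.5 CPM in the other 5 libraries. Log2 fold changes without WT replicate 1 were 0.28 for *Vim*, -0.08 for *Col3a1*, 0.22 for *Twist1*, -0.32 for *Fn1* and -0.46 for *Col1a1*. Without both named libraries they were 0.31, -0.03, 0.24, -0.35 and -0.59 in that order. Each of these 5 genes had an adjusted p of 0.781 or higher in edgeR with all libraries. Without a count filter the adjusted p in edgeR was 2.34e-05 for *Fn1* and 2.44e-25 for *Col1a1*. In that fit *Col1a1* was the only DEG of the 18, compared with 319 of all 33139 genes tested.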

How the data were processed

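Poly(A)-selected RNA of 6 libraries, each a pool of 2 embryos, was sequenced by the authors as single-end 40-base reads, aligned with STAR to GRCm38 and counted per Ensembl gene. The deposited values are raw counts per gene, whole numbers with no normalization, and which strand column was used is not given in the sources used here. STAR leaves out reads that fit several places or genes.

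Genotype and replicate number came from the sample titles. The titles name separate replicates, and where pools shared litters is not stated, so the spread is that between these pools. Counts were analysed with edgeR 4.0.16 in R 4.3.3 (filterByExpr, TMM scaling, legacy quasi-likelihood F-test, two-sided p-values with Benjamini-Hochberg adjustment over 16784 genes). CPM values use TMM-scaled totals. A GENCODE annotation of GRCm38 gave symbols, positions and 3′ UTRs and named 55141 of the 55401 gene identifiers. The smallest chi-square per gene between any pair of libraries was 5.77, above sampling noise, so all 6 were kept as separate. The steps were tested on simulated data.

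The 10 genes and all lists were chosen with earlier results of these data known. Besides the 10, the text names by rule the 3 most abundant genes per kilobase and the 2 with the smallest unadjusted p of the junction, keratin, epithelial and mesenchymal lists, the 4 most abundant yolk sac markers, and the 2 closest profiles of each gene. *Cdh2*, *Esrp2*, *Krt16*, *Shh*, *Foxa3* and *Cdx2* were added after their values were seen. Alternatives were RLE scaling, library size alone, no count filter, at least 10 counts in every sample, DESeq2 1.42.0, limma-voom (limma 3.58.1), the replicate number as a block, GC-content offsets with and without that block, and left-out libraries.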

Additional observations from a re-analysis of the deposited data

How the results depend on the processing

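The median log2 fold change of the 10 epithelial genes stayed negative under all 16 alternatives, between -0.65 without 5C replicate 3 and -0.03 without WT replicate 1, and 9 of the 10 were lower in all but the alternatives without WT replicate 1, with 5, and without WT replicate 1 and 5C replicate 3, with 8. *Epcam*, *Krt18*, *Cldn6* and *Cldn7* changed sign without WT replicate 1, and *Cldn6* also without both libraries. The DEG count of 0 became 319 without a count filter (33139 genes tested), 11 in DESeq2 and 2 without both libraries, and lay between 0 and 1 when each library was left out in turn. Genes at an unadjusted p under 0.05, 1011 in all, numbered 2170 without a count filter, 548 with GC-content offsets and the replicate block, and between 456 (without 5C replicate 2) and 1803 (without WT replicate 2) when each library was left out. With the replicate block alone there were 782 such genes and 0 DEGs, and the median of the 10 genes was -0.39. Same-numbered libraries did not deviate together (correlations from -0.174 to 0.202), so the numbers were not taken as pairs. Some other genes reversed. *Tjp1* was at -0.0003 with RLE scaling, -0.0124 with GC-content offsets, -0.0112 with these and the block, and -0.0228 without both libraries, and *Lsr* was at 0.0152 by library size alone, 0.0112 without a count filter, 0.019 with the replicate block, 0.0643 with GC-content offsets, 0.0743 with these and the block, and 0.18 without both libraries. *Krt20* was at 0.0384 and *Itga6* at -0.0116 without both libraries. With each library left out, *Tjp1* ran from -0.0388 to 0.0474, *Lsr* from -0.12 to 0.21, *Krt20* from -1.91 to 0.38, *Afp* from -3.73 to 0.70, *Apob* from -5.23 to 0.41 and *Cubn* from -5.67 to 0.73. The causes were not tested. With 3 libraries per genotype and as few as 17 counts, *Cldn3* was the least precisely counted of the 10 genes.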
